A study of Mus musculus with 58 samples.

Results

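The newly made RNA of mouse embryonic stem (mES) cells was compared before and after 8 h of DPY30 loss. The comparison rests on all SLAM-seq libraries of the DPY30–mAID line at 0 h and at 8 h of auxin, chosen by line, assay and time point, and not by any measured value. These are 6 of the 58 libraries of the series, 3 at each time. All 6 came from E14 mES cells of 129/Ola background, grown on gelatin with serum and LIF, in which both Dpy30 alleles carry the mini auxin-inducible degron (mAID) at the stop codon and in which the plant receptor OsTIR1 is expressed, also at 0 h. The 8 h libraries differ from the 0 h libraries in having received auxin, which directs DPY30–mAID to degradation. No library of untagged or OsTIR1-only cells with auxin was used here, so that DPY30 loss and auxin itself cannot be told apart. The methods derive the line from homozygous clones and do not say how many clones were sampled. The study calls the samples of a time point biological replicates without saying what was separate, so that the spread between libraries may be technical. The p-values of single genes rest on the spread within time points over all 12 DPY30–mAID libraries. These include those of 2 h and 24 h of auxin, so that the p-values do not measure the spread of the 6 libraries alone.

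DPY30 is a shared core subunit of the SET1/COMPASS and MLL complexes, which methylate histone H3 on lysine 4. The trimethylated form, H3K4me3, marks the promoters of active genes, and it is removed by the KDM5 demethylases. In SLAM-seq, cells take up 4-thiouridine (4SU), which is built into new transcripts and, once alkylated with iodoacetamide, is read as C in place of T. A read with such a T>C mismatch comes from RNA made during labelling, here 60 min with 100 µM 4SU, whereas the other reads come mostly from older mRNA. The libraries sample the 3′ end of polyadenylated RNA, so that the values describe newly made mature mRNA rather than polymerase on the gene body.

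The 6 libraries held 2048085 to 2806821 counted reads, of which 21.8% to 23.3% mapped to several places in the genome (multimapped). Their ES cell identity genes were expressed at both times, with Sox2 at 1608 to 2045 and Nanog at 404 to 1180 T>C CPM (T>C reads of a gene per 1000000 T>C reads of the library, scaled by TMM factors) over the 6 libraries and Pou5f1, whose reads were 97.2% multimapped, at 344 to 575. Markers of fibroblasts summed to 11.0 to 17.6 CPM of all reads at 0 h and 10.0 to 11.9 at 8 h, those of trophectoderm to 100.3 to 135 and 95.8 to 129, those of primitive endoderm to 684 to 766 and 790 to 823 with Sox17, Ttr and Cubn at 0, those of 2-cell-like cells to 0 to 0.362 and 0 to 2.98, and those of the germline to 80.5 to 98.9 and 49.9 to 67.8. The part of these cells in the results below was not tested.

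The share of reads with a T>C mismatch was lower at 8 h. It was 16.1%, 15.3% and 16.1% in the 0 h libraries and 13.0%, 9.82% and 5.51% in the 8 h libraries, with intervals (Wilson, 95%) of at most 0.0504 percentage points to either side, which cover counting error only, as the reads carry no molecular identifiers. The 8 h libraries lay below all 0 h libraries, but they spread far more, and replicate 3 stood apart with the smallest share. Other times of auxin in this line had 14.9%, 14.4% and 14.9% at 2 h and 15.6%, 15.8% and 14.5% at 24 h. The low share of 8 h was thus not present at 24 h. From 0 h to 8 h the mean fell from 15.9% ± 0.462 (SD, n = 3) to 9.46% ± 3.78, a ratio of 0.597. A two-sided exact permutation test gave p = 0.1, which is the smallest p that 3 against 3 libraries allow. Covered T positions read as C gave the same order, with 1.08%, 0.998% and 1.06% at 0 h and 0.855%, 0.609% and 0.317% at 8 h (exact p = 0.1). Each T>C read held 1.25, 1.24 and 1.25 conversions at 0 h and 1.24, 1.16 and 1.06 at 8 h (exact p = 0.2), so that the 8 h replicate with the fewest T>C reads also had the fewest conversions in each. In 2 unlabelled Quant-seq libraries of the same line, the DMSO samples at 0 h of the separate retinoic acid series, the same count gave 0.338% and 0.303% T>C reads. Their reads covered 11.6 and 11.5 T each, against 18.5 to 19.0 in the 6 SLAM-seq libraries, so that the shares are not like for like. At their rate per covered T, background made up 3.17% of the T>C reads of tested genes at 0 h and 5.25% at 8 h. In 8 h replicate 3 it made up 8.88%. In bulk RNA, fewer transcribing cells, less new RNA per cell and less 4SU in each transcript cannot be told apart.

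**Figure D1:**
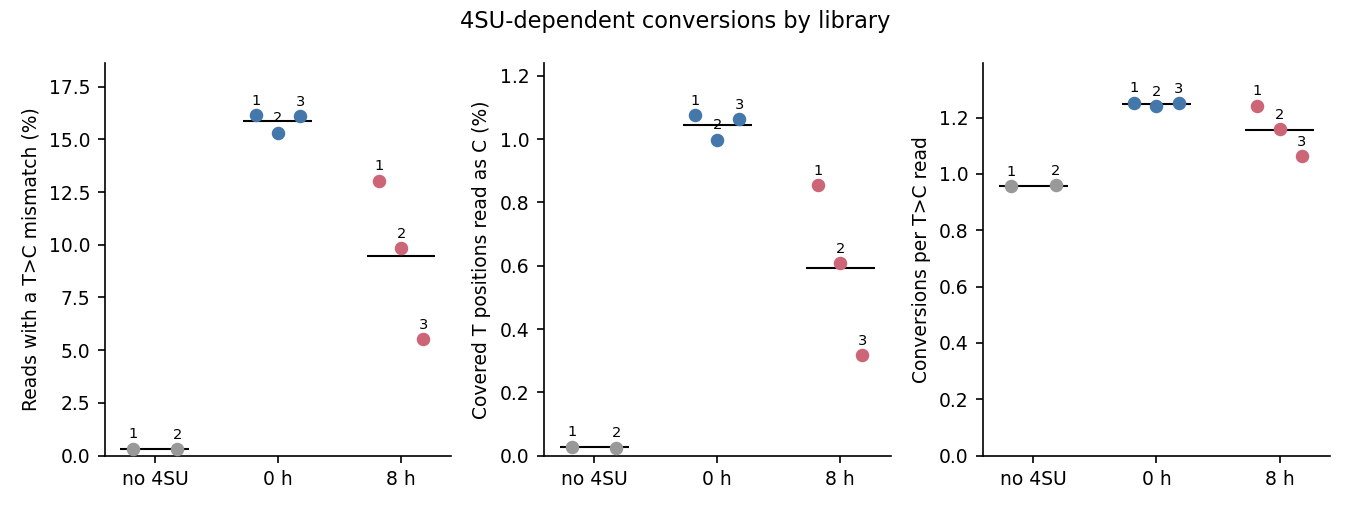
Each point is 1 library of DPY30–mAID cells (numbers are replicates) and each line a group mean, for the share of reads with a T>C mismatch (%), the share of covered T positions read as C (%) and the conversions per T>C read. The unlabelled libraries, whose reads covered fewer T, lay near 0.3% T>C reads, the 0 h libraries at 15.3% to 16.1%, and the 8 h libraries spread from 13.0% down to 5.51%.

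Scaled to all reads, newly made RNA of most genes was lower after 8 h without DPY30. Tested were 6317 genes whose T>C reads averaged 10 or more at 1 or more of the time points sampled, with all counted reads as the library size, so that a change shared by all genes stayed visible. The median log2 fold change over these genes was −0.71, and the middle 50% of the genes lay between −1.11 and −0.25. The 3 libraries of 8 h differed in the size of this shift: the median was −0.22 in replicate 1, −0.58 in replicate 2 and −1.55 in replicate 3, and 61.3%, 75.6% and 91.3% of the genes were below the 0 h mean. Past a log2 fold change of 1 and with adjusted p under 0.05, 915 genes (14.5%) fell and 10 genes (0.158%) rose. The count of genes that fell was 472 without replicate 3 and 1882 without replicate 1, so that its size depended on which library carried the shift. It was 253 when the fit held only the 0 h and 8 h libraries. The 10 genes that rose were 1110008P14Rik, Fam117a, Fignl2, Hlf, Ier3, Mapkapk3, Mitf, Ndrg1, Pcmtd1 and Pea15a. Of these 1110008P14Rik, Fignl2 and Pea15a each had 3 T>C reads over the 0 h libraries, and Hlf had 0. These genes, and Ndrg1, were tested only through a later time point, so that their rise is no support for a direction. In all reads of the same genes, old and new RNA together, the median log2 fold change was −0.03.

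**Figure D2:**
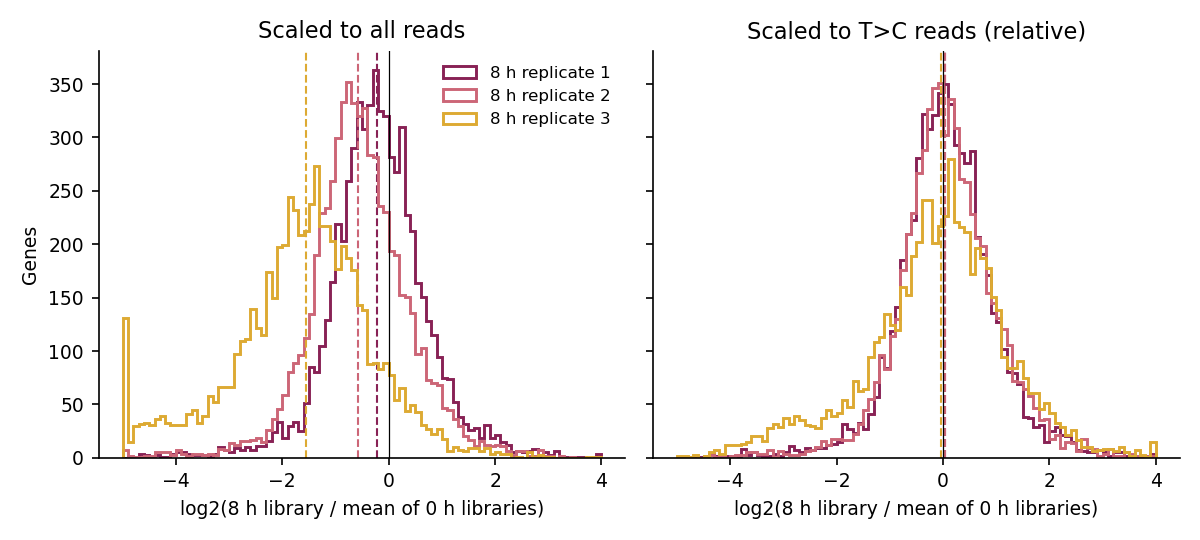
Histograms of the log2 change of T>C reads of the 6317 tested genes in each 8 h library against the mean of the 0 h libraries, scaled to all reads (left) and to T>C reads (right), with dashed lines at the medians and values beyond the axes in the outermost bins. On the left the medians are −0.22, −0.58 and −1.55, and on the right they are 0.04, 0.04 and −0.04.

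To see which genes moved beyond the common shift, T>C reads were scaled to T>C reads. This scale shows the share of newly made RNA that a gene takes up, and it says nothing of the absolute amount. The median log2 fold change became −0.02, and the medians of the 3 libraries came together at 0.04, 0.04 and −0.04. On this relative scale 213 genes (3.37%) fell and 71 genes (1.12%) rose at an adjusted p below 0.05, and 90 (1.42%) and 62 (0.981%) did so with a log2 fold change past 1. All 213 genes that fell on the relative scale had fallen on the scale of all reads as well, where they made up 23.3% of the 915 genes. None of the 71 genes that rose on the relative scale fell on the scale of all reads, and 10 of them rose there too. Both scales use the same T>C reads and differ mostly by the common shift. These overlaps therefore follow largely from the scaling and are no independent support. The balance of directions depended on the scaling factors and on the filter. Without TMM factors 121 genes fell and 131 rose, with the median over all genes at 0.12. With TMM factors taken over all genes instead of the tested genes, a choice made after seeing the data, 287 fell and 66 rose, and with a minimum mean of 50 T>C reads 118 fell and 98 rose. Leaving out 1 library mattered more for some libraries than for others. Without 8 h replicate 3, 189 genes fell and 47 rose, among them 155 of the 213 and 39 of the 71. Without 0 h replicate 1, 135 fell and 35 rose, among them 131 and 27, and without 0 h replicate 2, 125 fell and 46 rose, among them 122 and 34. DESeq2 called 222 lower and 132 higher. All 71 genes that rose kept their call without TMM factors, and 121 of the 213 genes that fell did.

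The genes that fell and those that rose came from different ranges of level. The 213 genes that fell had a median of 245 T>C reads in the 0 h libraries and 73 at 8 h, whereas the 71 genes that rose had 18.3 and 33 and all tested genes 27.3 and 17. Of the genes that fell 206 had 8 h libraries that did not overlap the 0 h libraries, and of the genes that rose 66 did, beside 1345 of all 6317 tested genes. Among the genes that rose 22 had under 10 T>C reads at 0 h and could be tested only through a later time point, so that a count over them is no support for a direction. When the tested genes were divided into 5 equal bins by their T>C level in the 0 h libraries of the RBBP5–FKBP line, which took no part in the comparison, the median relative change was 0.16, 0.15, 0.10, −0.07 and −0.25 from the lowest to the highest bin. The highest bin held 178 of the 213 genes that fell, 14.1% of its 1264 genes. Counts limit what can be called at low level, and the share called thus mixes level with depth. The medians do not depend on calls, but they do depend on the filter. Of the 6317 tested genes 718 averaged under 10 T>C reads at 0 h and passed only through a later time point. How far this choice shapes the trend with level was not tested. Gene span, looked at after the values were seen, went the other way: the median relative change was −0.13 in the bin of the shortest genes and 0.18 in that of the longest, and the genes that fell had a median span of 14.4 kb against 24.7 kb for all tested genes and 34.9 kb for the genes that rose. Bins by the labelled share of a gene's reads, which reflects its turnover, stayed between 0.02 and −0.06.

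**Figure D3:**
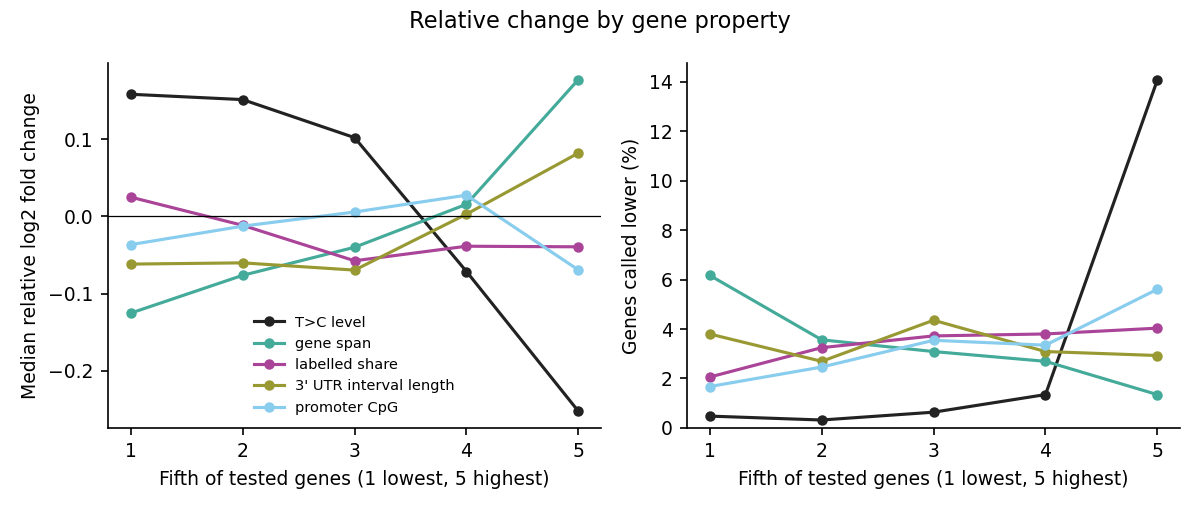
Median relative log2 fold change (left) and percentage of genes that fell (right) in 5 equal bins of the tested genes, ordered from lowest to highest T>C level and labelled share in RBBP5–FKBP 0 h libraries, gene span, 3′ UTR interval length and CpG content of the promoter (5081 genes). The T>C level separated the bins most, from 0.16 to −0.25 and from 0.475% to 14.1%, and gene span went from −0.13 to 0.18.

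Dpy30 itself is removed as a protein, so its RNA does not check the labels. Dpy30 had 330.1, 295 and 348 T>C CPM at 0 h and 166, 217 and 241 at 8 h. The groups did not overlap, but the relative log2 fold change of −0.67 ± 0.29 (SE) did not pass the test (adjusted p = 0.187), while on the scale of all reads it was −1.42 (adjusted p = 0.00625). Of the 19 genes of the H3K4 methyltransferase complexes, all tested, 1 fell, none rose and the median was 0.05. The gene that fell was Setd1b, a catalytic subunit, with 847, 873 and 827 T>C CPM at 0 h and 571, 619 and 498 at 8 h, a relative log2 fold change of −0.58 ± 0.18 (adjusted p = 0.0448), and it lost the call in 10 of 13 alternatives, among them each fit that left out 1 library. Rbbp5, Ash2l and Wdr5, the other core subunits, had values of −0.09, 0.05 and −0.40, none past the test. Kdm5b, an H3K4 demethylase of high level in these cells, had −0.29 (adjusted p = 0.313).

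By number, splicing (14) and protein folding (11) were the lists with most genes that fell beyond the common shift. The FGF and ERK feedback list had a like share (28.6% of 14 genes), but its 4 calls became 2 with DESeq2, without TMM factors, with only 0 h and 8 h libraries in the fit, and without 8 h replicate 1, 8 h replicate 3, 0 h replicate 1 or 0 h replicate 2. Each list was chosen with earlier results of these data known, and its count is read here against the 3.37% of all tested genes that fell and, because the share that fell was largest among the most transcribed of 5 equal bins, against the 14.1% and the median of −0.25 of the highest level bin. Of 27 tested heat shock proteins and chaperones 11 fell and 1 rose (40.7% and median −0.64), of 50 SR, hnRNP and SF3 proteins 14 fell (28%, median −0.50), of 21 Polycomb genes 5 fell (23.8%, median −0.25), of 29 naive pluripotency genes 5 fell and 1 rose (17.2%, median −0.34), of 39 translation initiation factors 6 fell (15.4%, median −0.36), and of 97 ribosome biogenesis factors 7 fell (7.22%, median −0.29). Restricted to the highest level bin, 10 of 19 chaperone genes fell (52.6%, median −0.49), as did 14 of 34 splicing genes (41.2%, median −0.62) and 5 of 12 Polycomb genes (41.7%, median −0.57), while 6 of 23 initiation factors (26.1%, median −0.36), 5 of 26 pluripotency genes (19.2%, median −0.33) and 7 of 39 ribosome biogenesis factors (17.9%, median −0.44) fell. Leaving out 1 library in turn, 9 to 11 chaperone, 10 to 14 splicing, 3 to 5 Polycomb, 4 to 5 naive pluripotency, 3 to 8 initiation and 5 to 7 ribosome biogenesis genes fell. The lowest count was 3 without 8 h replicate 2 for initiation factors and 3 without 8 h replicate 1 or 0 h replicate 2 for Polycomb genes, and without 8 h replicate 3 the chaperone and splicing counts were 10 and 14. No list was tested as a set. In the 3 libraries of 8 h the chaperone medians were −0.59, −0.59 and −0.50 and the splicing medians −0.50, −0.56 and −0.52, so that these groups moved alike in libraries whose common shift differed.

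**Figure D4:**
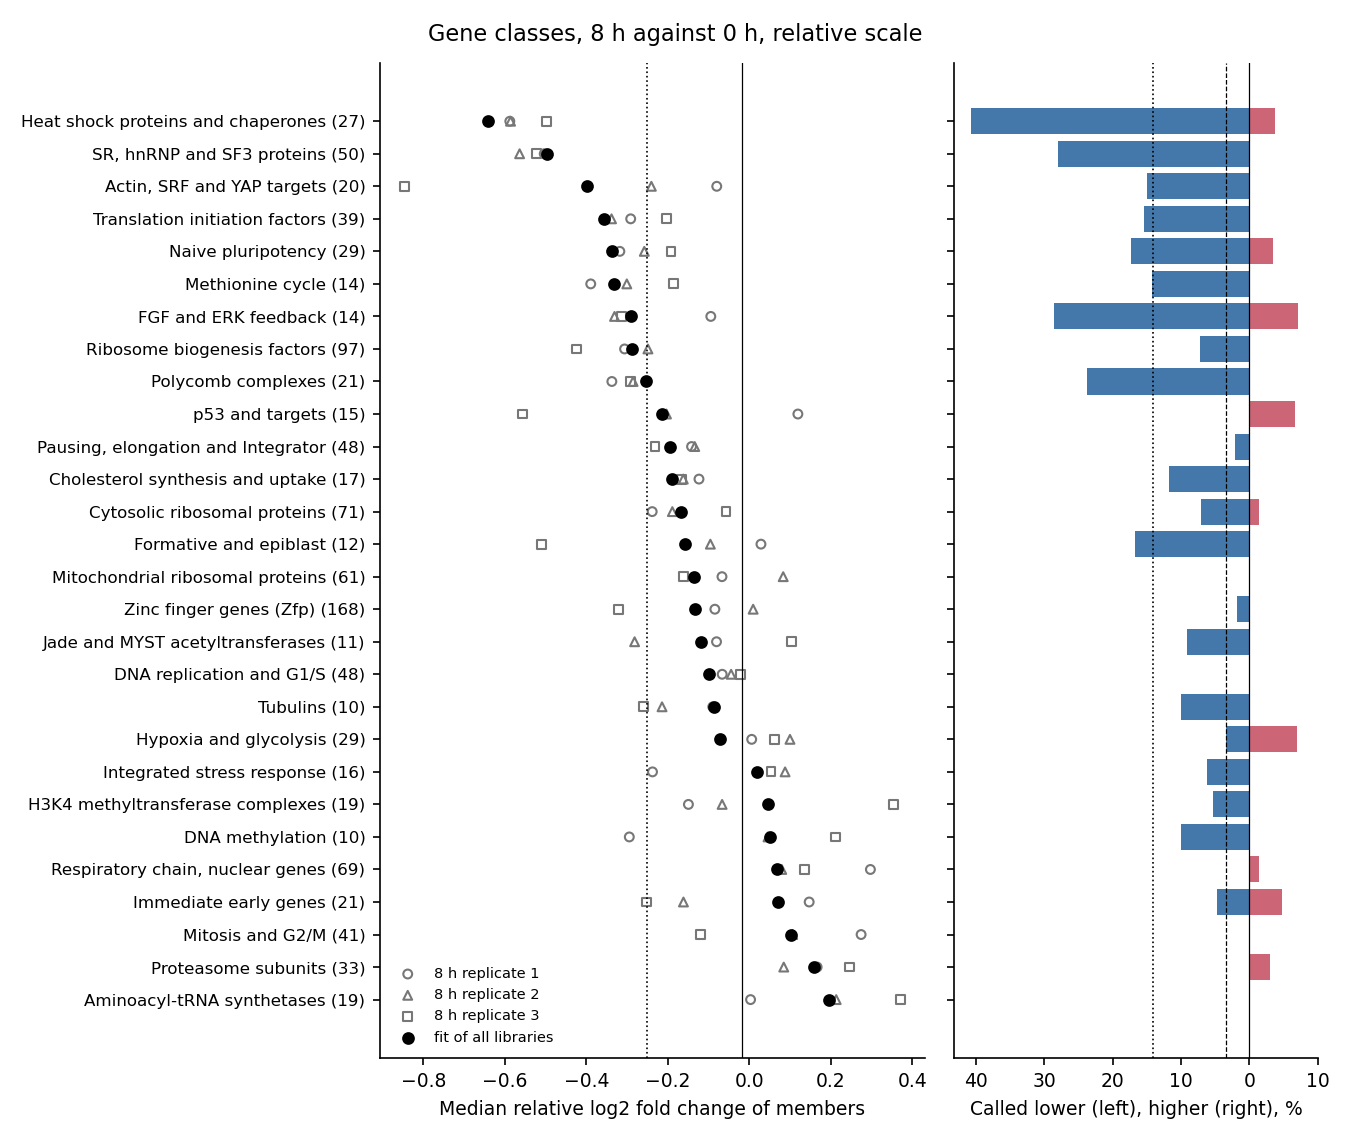
Lists with at least 10 tested genes (number in brackets), ordered by the median relative log2 fold change of their members (black, fit of all libraries), with the median in each 8 h library (open), and on the right the percentage of members that fell (blue) or rose (red). The solid line in the left panel is the median of all tested genes (−0.02), dotted lines are the highest level bin (−0.25 and 14.1%), and the dashed line is the 3.37% of all genes that fell.

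Among the chaperones, genes of several folding systems fell together. Hspd1 (chr1:55077835-55088243, minus strand, GRCm38) and Hspe1 (chr1:55088132-55091307, plus strand) encode the mitochondrial chaperonin and its co-chaperonin and are transcribed in opposite directions from neighbouring starts, the annotated genes overlapping there. Hspd1 had 1687, 1578 and 1211 T>C CPM at 0 h and 969.5, 583 and 506 at 8 h, and Hspe1 had 712, 744 and 658 T>C CPM at 0 h and 365, 357 and 272 at 8 h. Both genes had 8 h libraries below all 0 h libraries, with relative log2 fold changes of −1.09 ± 0.17 and −1.06 ± 0.20 (adjusted p = 5.24e-06 and 0.000101), although 77.4% and 54.6% of their reads were multimapped. Hsph1, an HSP110 nucleotide exchange factor with 0.2% multimapped reads, had 538, 517 and 565 T>C CPM at 0 h and 187, 257 and 241 at 8 h (−1.26 ± 0.24, adjusted p = 0.000202). Chordc1, an HSP90 co-chaperone, showed the largest fall of the list, from 153, 114 and 156 to 39.3, 27.1 and 31.1 T>C CPM (−2.07 ± 0.47, adjusted p = 0.00255). Dnaja1, an HSP40 co-chaperone (−1.13), Cct3, a subunit of the cytosolic chaperonin (−0.95), Ahsa1, an activator of the HSP90 ATPase (−0.80), Hspa8, the constitutive HSP70 (−0.74), Fkbp4, an HSP90-bound immunophilin (−0.70), Hspb1, a small heat shock protein (−0.64), and Hsp90ab1, the constitutive cytosolic HSP90 (−0.49), also fell. Of the 19 chaperone genes with under 20% multimapped reads 5 fell, and without TMM factors 9 of the 27 fell. With a minimum mean of 50 T>C reads 9 of 24 chaperone genes were lower and 3 higher, and 9 of 44 splicing genes lower and 2 higher. The one member that rose was Hspa5, the HSP70 of the endoplasmic reticulum (0.49, adjusted p = 0.0412), and it lost the call in 9 of 13 alternatives, with adjusted p up to 0.246.

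Heat shock genes are classically switched on through heat shock elements, inverted repeats bound by HSF1. The element, searched as GAA, TTC and GAA with 2 bases between each and on both strands of the 250 bases before to 50 bases after each start given by RefSeq (GRCm38.p6), was present in 153 of 32851 promoters (0.466%), in 16 of the 5081 tested genes with a promoter (0.315%) and in 1 of 21 chaperone genes. That gene was Hspe1, and its window (chr1:55088053-55088082, plus strand) is shown because both genes of this pair fell. It lies before Hspe1 and inside the annotated start of Hspd1, with capitals for 2 overlapping matches 89 to 72 bases before the RefSeq start of Hspe1. That start is 16 bases from the GENCODE start of Hspe1 given above.
Hspe1 heat shock element: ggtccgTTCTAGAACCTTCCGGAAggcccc
A match describes the letters only, and its absence elsewhere says only that these letters are not in the window.

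Of the 50 tested splicing genes 14 fell, the SR proteins Srsf3 and Srsf7 among them, and 36 did not pass the test. SR proteins bind exonic enhancers and recruit the splicing machinery, and hnRNPs coat nascent transcripts. Srsf3 (chr17:29032628-29043373) had 1125, 879.9 and 1216 T>C CPM at 0 h and 495, 519 and 404 at 8 h and Srsf7 (chr17:80200080-80207307) 822, 532 and 773 T>C CPM at 0 h and 323, 235 and 257 at 8 h, without overlap between the groups in either gene. Their relative log2 fold changes were −1.17 ± 0.16 and −1.36 ± 0.19 (adjusted p = 5.77e-08 and 2.96e-07). In all reads these changes were −1.34 and −2.55, so that the pool of old and new mRNA of both genes was lower by 8 h as well. Srsf1 (−0.85) and Srsf2 (−0.67) fell less. Pcbp1, a poly(C)-binding protein, fell (−1), as did U2af1 and U2af2, which recognise the 3′ splice site (−0.88 and −0.66). The remaining calls were Hnrnpa0, Hnrnpa1, Hnrnpa2b1, Hnrnpab, Hnrnph1, Hnrnpu and Syncrip, between −0.60 and −1.14, of which Hnrnpa1 and Hnrnph1 had 98.3% and 90.4% multimapped reads. Without TMM factors 9 of the 50 genes fell and 1 rose. Sfpq, a paraspeckle protein outside the list that was picked after its values were seen, had 886, 1180 and 1035 T>C CPM at 0 h and 341, 339 and 210.0 at 8 h (−1.76 ± 0.19, adjusted p = 5.58e-11).

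Among genes that build ribosomes and start translation, 7 of 97 and 6 of 39 fell. Nucleolar factors with a fall were Rrs1 (743, 645 and 635 T>C CPM at 0 h and 320.1, 303 and 194 at 8 h, −1.26 ± 0.20), Nifk (−1.30), Nolc1 (−1.22), Ppan (−1.01), Rrp1b (−0.98), Rcl1 (−0.75) and Ncl, the major nucleolar RNA-binding protein (2702, 2611 and 2764 T>C CPM at 0 h and 1930, 1689 and 1299 at 8 h, −0.71 ± 0.13, adjusted p = 0.000166). Initiation factors with a fall were Eif5a (−1.06), which also acts in elongation, Eif4ebp1 (−1.04), an inhibitor of the cap-binding factor eIF4E, Eif4a1 (−0.79), the RNA helicase of the cap complex, Eif1a (−0.67), Eif5 (−0.65) and Eif4g2 (−0.57). Among the 27 initiation factors with under 20% multimapped reads 3 fell. Of the 71 cytosolic ribosomal protein genes 5 fell, among them Rpl9 (−1.04), Rpl23 (−0.65), Rps3a1 (−0.59) and Rpl41 (−0.51), 1 rose and the median was −0.17, yet a median of 88.9% of their reads were multimapped. Without 0 h replicate 1 only 1 of them fell, without 0 h replicate 2 only 2, and without each of the other libraries 3 or 4. Relative to the median of all genes, that median (−0.15) ran from −0.28 without 8 h replicate 3 to −0.06 without 0 h replicate 1, and it changed sign to 0.01 over the 12 members with under 20% multimapped reads and over the 65 members that averaged 50 T>C reads or more. Rpl8, the one that rose, had 1495, 1291 and 1261 T>C CPM at 0 h and 1250, 1824 and 2978 at 8 h; its groups overlapped and the high value came from 8 h replicate 3. No gene of the mitochondrial ribosome (61 tested, median −0.14) or of the aminoacyl-tRNA synthetases (19 tested, median 0.20) passed the test.

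Mat2a showed the smallest p of all genes. It encodes the enzyme that makes S-adenosylmethionine, the methyl donor of histone methyltransferases. Mat2a (chr6:72432799-72439558, minus strand) had 6095, 6742 and 6470 T>C CPM at 0 h and 2138, 1572 and 2364 at 8 h. All 8 h libraries lay far below the 0 h libraries, the relative log2 fold change was −1.67 ± 0.12 (adjusted p = 8.53e-20), and on the scale of all reads it was −2.41. Its log2 change in all reads was −1.87, so that the mRNA pool fell too. In the methionine cycle list 2 of 14 genes fell (1 without 8 h replicate 2), the other being Odc1 of polyamine synthesis (−0.81, 86.9% multimapped).

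In the Polycomb list the falls were in both repressive complexes. Jarid2 (chr13:44729474-44921643, plus strand), an accessory subunit of PRC2 that guides it to CpG islands, was among the genes with most T>C reads: 4900, 4873 and 4906 T>C CPM at 0 h and 2374, 1901 and 2139 at 8 h. Its 0 h libraries were tightly grouped and the 8 h libraries lay far below them (−1.19 ± 0.12, adjusted p = 1.33e-12). Mtf2, another PRC2 accessory subunit (−0.74), and Rbbp7, a histone-binding subunit shared with other complexes (−1.17), fell, as did Rybp (−0.82) and Rnf2 (−0.74), a partner and the ubiquitin ligase of PRC1. Rybp had 96.6% multimapped reads and lost the call in 5 of 12 alternatives, and Rnf2 in 8 of 13. Jade1, a scaffold of the HBO1 acetyltransferase complex, had 3264, 4037 and 4176 T>C CPM at 0 h and 2017, 1978 and 2224 at 8 h (−0.89 ± 0.12, adjusted p = 8.38e-08) and was the 1 gene of 11 in its list to fall. Other chromatin and transcription genes with a fall were Hexim1, which holds P-TEFb inactive in the 7SK particle (−0.85, 1 of 48 pausing, elongation and Integrator genes), Trim28, a corepressor of zinc finger proteins (−0.51, 1 of 10 DNA methylation genes), and Mga, a MAX partner (−0.998, 1 of 8 Myc network genes). These calls were not stable, with Hexim1 and Mga each losing it in 9 and Trim28 in 5 of 13 alternatives.

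Pluripotency genes split. Nanog (chr6:122707489-122714633, plus strand), a core factor of naive identity, had 1012, 1027 and 1180 T>C CPM at 0 h and 670.5, 560.0 and 404 at 8 h, with no overlap, and fell by 0.95 (SE 0.17, adjusted p = 5.91e-05). Klf5 (−0.75), Mybl2 (−0.87) and Sall4 (−0.66) fell with it. Klf2 (chr8:72319033-72321656, plus strand), another Krüppel-like factor of the naive network, went the opposite way, with 978, 984 and 1141 T>C CPM at 0 h and 1453, 1572 and 1835 at 8 h, again without overlap (0.64 ± 0.15, adjusted p = 0.00412). Klf2 had a log2 change of −0.11 on the scale of all reads, so that its relative rise was a higher share of a smaller pool. Pou5f1 (−0.33), Sox2 (0.02), Esrrb (−0.25) and Zfp42 (−0.50) did not pass the test, and each had overlapping groups. In the formative list 2 of 12 genes fell, Sox4 (−0.94) and Etv5 (−0.62), against 1 without 8 h replicate 1, 8 h replicate 3 or 0 h replicate 1 and none without 0 h replicate 2.

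Targets and inhibitors of ERK signalling moved in both directions, with 4 of 14 genes lower (28.6%, or 2 genes under the alternatives named above) and 1 higher. Spred1, which restrains RAF activation, had 556, 728 and 818 T>C CPM at 0 h and 341, 321 and 272 at 8 h (−1.16 ± 0.22, adjusted p = 0.000147), and Phlda1 275, 341 and 344 T>C CPM at 0 h and 139, 85.8 and 85.5 at 8 h (−1.57 ± 0.29, adjusted p = 0.000116). Egr1 had 16 T>C reads over the 3 libraries of 0 h and 0 over those of 8 h, and its groups overlapped because 1 of the 0 h libraries also had 0. The gene that rose was Ier3, described with the other genes that rose. The list's median of −0.29 changed sign, relative to all genes, when conversions were counted in place of reads. In the list of actin genes and SRF targets 3 of 20 fell (15.0%, median −0.40): Actb, Actg1 and Cfl1. Among its 18 members with under 20% multimapped reads 1 fell. The list's medians in the 8 h libraries were −0.08, −0.24 and −0.85, with replicate 3 the lowest, and 2 members were higher with DESeq2, without TMM factors and with a minimum mean of 50 T>C reads. Actb (chr5:142903115-142906754, minus strand), cytoplasmic beta-actin, had 4255, 4269 and 4162 T>C CPM at 0 h and 2247, 2244 and 2139 at 8 h, with narrow groups that did not overlap and a relative log2 fold change of −0.93 ± 0.11 (adjusted p = 6.28e-10). In all reads its log2 change was −0.12. Actg1 had 3243, 3423 and 3268 T>C CPM at 0 h and 1622, 1463 and 1664 at 8 h (−1.07 ± 0.12), but 99.6% of its reads were multimapped. Cfl1 (−0.87) had overlapping groups and 55.6% multimapped reads. The CArG box, the SRF site of actin genes, was found in 3 of 17 promoters of that list and in 59 of 5081 tested genes (1.16%), the 3 being Cnn2 and Srf, which were not called, and Actg1, which fell (chr11:120348566-120348595, minus strand, RefSeq GRCm38.p6, capitals for the match 90 to 81 bases before the start, shown because both actins fell).
Actg1 CArG box: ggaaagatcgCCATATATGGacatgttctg
Tuba1b, the main alpha-tubulin, fell by 0.84 (adjusted p = 5.54e-08, 78.1% multimapped), 1 of 10 tubulins.

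In cholesterol synthesis 2 of 17 genes fell (11.8%, median −0.19), and 1 without 8 h replicate 1, 0 h replicate 2 or 0 h replicate 3. Hmgcs1, the synthase that makes HMG-CoA (chr13:119690379-119708260, plus strand) had 813, 1025 and 829 T>C CPM at 0 h and 347, 370.3 and 226 at 8 h (−1.47 ± 0.20, adjusted p = 1.01e-07), without overlap between the groups. Fasn of fatty acid synthesis, outside the list and picked after its values were seen, had 321, 334 and 244 T>C CPM at 0 h and 127, 154 and 15.6 at 8 h (−1.49 ± 0.36), its lowest library being 8 h replicate 3.

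**Figure D5:**
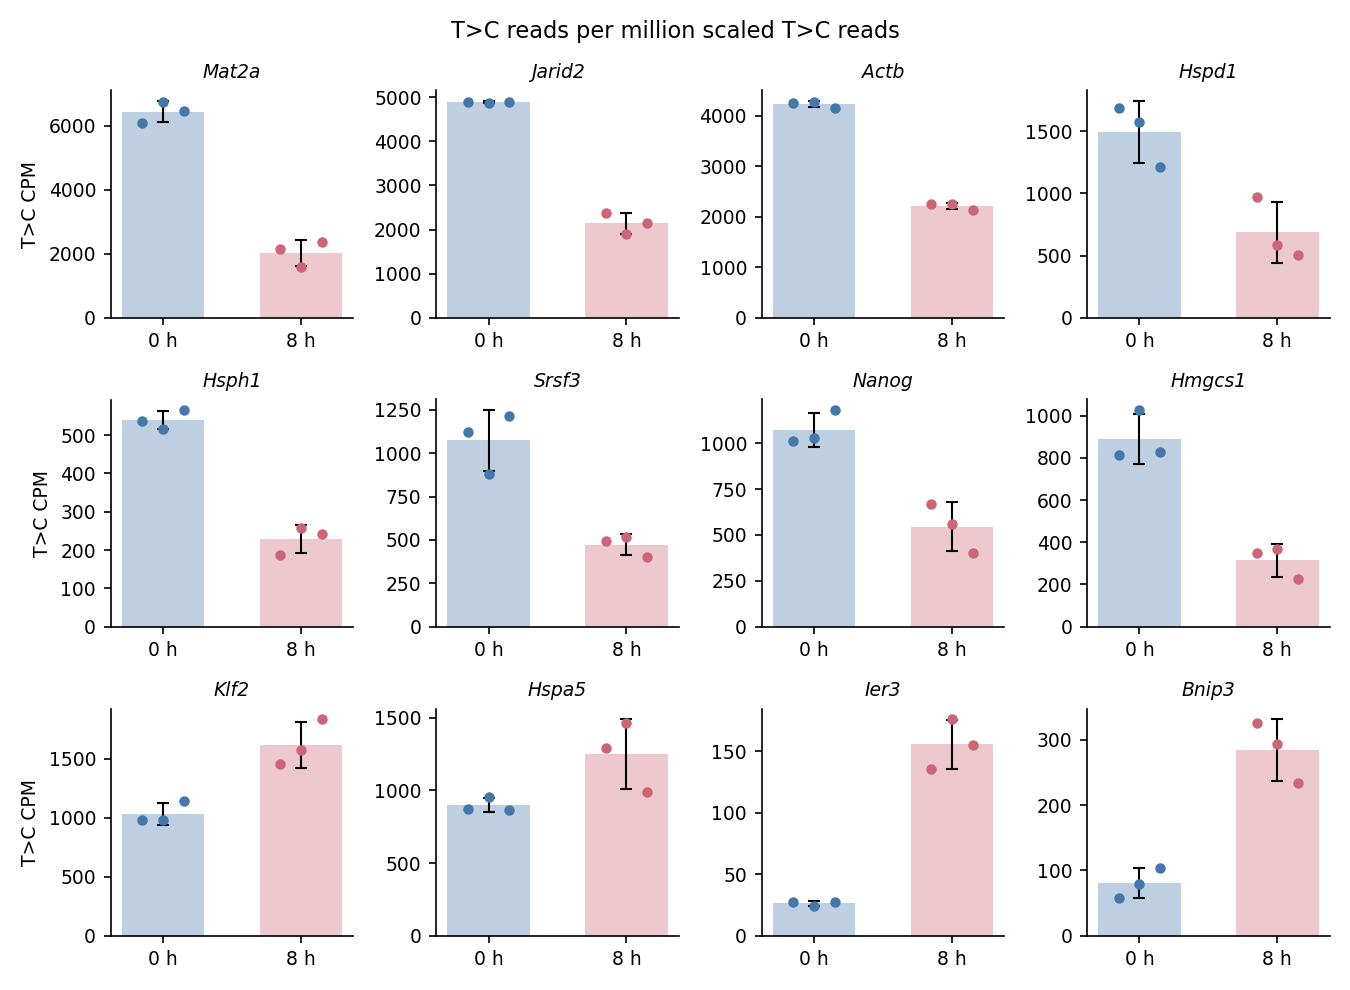
T>C CPM of 12 genes in DPY30–mAID cells at 0 h (blue) and after 8 h of auxin (red), scaled to T>C reads; points are libraries, bars means and error bars SD (n = 3). Mat2a, Jarid2, Actb, Hspd1, Hsph1, Srsf3, Nanog and Hmgcs1 were lower and Klf2, Hspa5, Ier3 and Bnip3 higher at 8 h, and in none did the libraries of the groups overlap.

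The largest falls among genes without overlap were in genes with 37.9 to 199 T>C CPM at 0 h on average. By the rule for named genes (called, groups not overlapping, under 50% multimapped reads) the 10 lowest were Pid1, 4930447C04Rik, Zfp422, Nrp2, Zbtb10, Zbtb2, Iba57, Bend3, Baz1a and Thoc1. Nrp2 (chr1:62703285-62818695, plus strand), a neuropilin receptor of semaphorins and VEGF, rested on most reads and had 242, 198 and 158 T>C CPM at 0 h and 15.1, 36.1 and 23.3 at 8 h (−3.03 ± 0.47, adjusted p = 2.70e-06). Zfp422, a zinc finger protein, had 101, 62.9 and 67.8 T>C CPM at 0 h and 9.06, 9.03 and 0 at 8 h (−3.37 ± 0.77). Pid1 and 4930447C04Rik went from 44 and 46 T>C reads over the 0 h libraries to 1 each at 8 h, which is too few for a fold. Of the 168 tested Zfp genes 3 fell, Zfp422, Zfp518a (−1.82) and Zfp706 (−0.59), which is 1.79% of them. Slc7a3, a transporter of cationic amino acids, had 272, 433 and 305 T>C CPM at 0 h and 112, 154 and 132 at 8 h (−1.36 ± 0.31) and was the 1 of 16 integrated stress response genes to fall, and Mif, whose groups overlapped, the 1 of 29 hypoxia and glycolysis genes.

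The genes that rose were fewer, and of the lists plotted by class, with at least 10 tested genes, none had over 7.14% of its members among them. A list of endoplasmic reticulum genes put together after values were seen had 4 of 17. The 10 highest by the rule were Fignl2, 1110008P14Rik, Pea15a, Slc12a9, Gskip, Igsf3, Mapkapk3, Ndrg1, Trp53i11 and Usp49. Fignl2 was counted 0, 2 and 1 times in the 0 h and 23, 19 and 30 times in the 8 h libraries, and 1110008P14Rik and Pea15a likewise had 3 T>C reads over the 0 h libraries, against 27 and 32. For Mapkapk3, a kinase of the p38 pathway, at least 5% of the reads in unlabelled libraries already carried a T>C mismatch, as for 2 of 70 genes that rose, 0 of 212 that fell and 137 of 6280 tested genes. Hlf, which rose in the fit, had 0 T>C reads in all 0 h libraries and in 8 h replicate 2. Ier3 (chr17:35821684-35822923, plus strand), an early response gene that modulates ERK and NF-κB signalling, rose from 9, 10 and 12 T>C reads at 0 h: it had 27.5, 24.2 and 27.1 T>C CPM at 0 h and 136, 176 and 156 at 8 h, a narrow range on both sides (2.55 ± 0.53, adjusted p = 0.000747). Bnip3 (chr7:138890836-138909519, minus strand), a mitophagy receptor induced by hypoxia, had 58.1, 79.8 and 104 T>C CPM at 0 h and 326, 294 and 233 at 8 h (1.82 ± 0.34, adjusted p = 0.000172), and its log2 change in all reads was 2.09. Ndrg1 (chr15:66929318-66969640, minus strand), another gene known from hypoxia, had 15.3, 12.1 and 18.1 T>C CPM at 0 h and 48.3, 140.0 and 163 at 8 h. These are 5, 5 and 8 T>C reads at 0 h, so that Ndrg1 was tested only through the times at which it was high, and its call is no support for a direction. Bnip3 and Ndrg1 were the 2 of 29 hypoxia and glycolysis genes that rose, while Ldha (−0.34) and Pgk1 (0.31) of glycolysis did not pass the test. Bbc3, which encodes the p53-induced cell death protein PUMA, rose (82.5, 116 and 79.1 T>C CPM at 0 h and 311, 294 and 132 at 8 h, 1.45 ± 0.33) as the 1 of 15 p53 genes, Psmd2 of the proteasome cap (0.94) as the 1 of 33 proteasome genes, and Cox6a1 of complex IV (1.03) as the 1 of 69 respiratory chain genes. These shares are 6.67%, 3.03% and 1.45%, beside 1.12% of all tested genes that rose. With 1 gene each, they say nothing of the lists. No gene of DNA replication (48 tested, median −0.10) or of mitosis (41 tested, median 0.10) passed the test in either direction. With a minimum mean of 50 T>C reads 3 of 28 mitosis genes were higher, with DESeq2 and without TMM factors 1 gene of each list was higher, without a filter and with under 20% multimapped reads 1 gene of DNA replication was lower, and leaving out 1 library called at most 1 gene of either list. None of 8 Nodal and BMP feedback genes passed the test. Neither did the 2 tested targets of the aryl hydrocarbon receptor, Tiparp (0.77) and Nqo1 (1.02). Of the latter, 1 was called higher without 8 h replicate 1, without 8 h replicate 2, without TMM factors and with a minimum mean of 50 T>C reads. No primitive endoderm or trophectoderm marker that was tested passed the test.

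Genes with most T>C reads were not all lower. Of the 5 genes with most T>C reads at 0 h, Ptma, the gene of prothymosin alpha, had 6990, 7597 and 6691 T>C CPM at 0 h and 6596, 6083 and 6828 at 8 h with overlapping groups (−0.13 ± 0.09), whereas Mat2a, Hsp90ab1, Tuba1b and Jarid2 fell. Of the genes described, Mat2a, Jarid2, Actb, Hspd1, Hsph1, Chordc1, Srsf3, Srsf7, Nanog, Klf2, Ier3, Bnip3 and Bbc3 kept the call in every alternative run. Others named in the lists above lost it in 7 or more of their 11 to 13 alternatives, namely Cox6a1, Egr1, Etv5, Fkbp4, Mif, Ppan, Rcl1, Rpl9, Rpl23, Rpl41, Rps3a1, U2af2, Zbtb10, Zfp706 and 4930447C04Rik, besides Setd1b, Hexim1, Mga, Rnf2 and Hspa5.

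The RBBP5–FKBP line, in which another core subunit of the same complexes is degraded with dTAG-13, has 0 h libraries of its own. Its T>C share was 10.1%, 9.45% and 9.10% at 0 h and 7.25%, 6.47% and 7.09% at 8 h, with less spread between the 8 h libraries than in DPY30–mAID cells, and its median log2 fold change on the scale of all reads was −0.50. On the relative scale 38 of its 4761 tested genes (0.798%) fell and 11 (0.231%) rose. Of the 213 genes that fell after DPY30 loss 205 were tested in that line, where their median relative change was −0.40 and 84.9% were below 0, beside −0.01 and 50.8% for all 4674 genes tested in both lines. Of the genes that rose 59 were tested there, with a median of 0.51 and 25.4% below 0. Most genes that fell after DPY30 loss, 178 of 213, lay in the highest level bin, whose values after RBBP5 loss were not taken separately. A trend with level shared by the lines therefore cannot be told apart from agreement of these genes. In both lines 17 genes fell, 8.29% of the 205 and 45.9% of the 37 that fell after RBBP5 loss, among them Bex1, Dynll1, Etv5, Fasn, G3bp2, Hmgcs1, Jade1, Mat2a, Mpzl2, Nrp2, Phlda1, Phlda2, Rrp1b, Sfpq, Spred1 and Tuba1b. Mat2a had a relative log2 fold change of −1.41 there, Nrp2 −2.86, Phlda1 −3.12, Hmgcs1 −1.65 and Jade1 −1.09. The cholesterol list had a median of −1.07 in RBBP5–FKBP cells, with 5 genes lower, beside −0.19 in DPY30–mAID cells, while the chaperone list had −0.15 beside −0.64 and the splicing list −0.25 beside −0.50, differences that were not tested for lists. The test of the difference between the lines called 4 genes lower (0.0625% of 6404) and 3 higher (0.0468%) after DPY30 loss than after RBBP5 loss. Hspa5 was among them, and so was Atxn7l3b, which had 404, 462 and 389 T>C CPM at 0 h and 93.6, 117 and 70.0 at 8 h in DPY30–mAID cells.

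Values at 2 h and 24 h of auxin use the same 0 h libraries and are given side by side only. The relative log2 fold change of Mat2a was −0.33 at 2 h, −1.67 at 8 h and −0.69 at 24 h, that of Jarid2 −0.30, −1.19 and −1.30, and that of Actb −0.26, −0.93 and 0.53. Srsf3 had −0.32, −1.17 and 1.68 and Srsf7 −0.47, −1.36 and 1.63, so that both were below the 0 h level at 8 h and above it at 24 h. Nanog had −0.44, −0.95 and 0.35, Bnip3 −0.34, 1.82 and 1.15, Ndrg1 −0.20, 2.87 and 2.24, and Ier3 0.69, 2.55 and 0.35.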

How the data were processed

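The authors aligned trimmed reads of polyadenylated RNA libraries (QuantSeq 3′) to the mouse genome GRCm38 (mm10) and counted reads with SlamDunk 0.3.4, as the deposited file headers state, keeping multimapped reads and removing T>C positions with a variant fraction of at least 0.2 as SNPs. The deposited counts are whole reads, all and with at least 1 T>C mismatch, for 46420 3′ UTR intervals of GENCODE. The methods also name a filter of at least 2 conversions, which these counts do not carry.

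Both counts were summed over the intervals of each of 20177 genes. Gene symbols and coordinates follow GENCODE names in the GRCm38 annotation. Genes whose T>C reads averaged 10 or more at 0, 2, 8 or 24 h were tested with the quasi-likelihood test of edgeR 4.0.16 in R 4.3.3 over the 12 DPY30–mAID libraries, with Benjamini-Hochberg adjustment over all genes tested, so that all 4 times share 1 estimate of the spread. Library size was all counted reads times TMM factors of all reads, or T>C reads times TMM factors of T>C reads (relative change). The difference from RBBP5–FKBP cells was an interaction over 24 libraries. Values in single 8 h libraries are log2 ratios to the mean of the 0 h libraries with a prior count of 0.5. No unit other than counts was used, and the remaining 32 deposited files were not used here.

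The members and all gene lists were chosen with earlier results of these data known. Bins by gene span, the list of endoplasmic reticulum folding genes and the genes named as picked after their values were seen came later still. Genes were named by rule: Dpy30 and the other subunits of its complexes, the 10 lowest and 10 highest relative changes among called genes without overlap and with under 50% multimapped reads, up to 4 called members of each list by adjusted p (otherwise up to 2 with most T>C reads), and the 5 genes with most T>C reads. Further called members of a list are named to account for its count, and were chosen after their values were seen. Some genes that the rule names are not reported here. Fits were tested on simulated counts. The alternatives were DESeq2 1.42.0, other scaling factors, other filters, a fit of 0 h and 8 h libraries alone, a replicate block, genes with few multimapped reads, conversions in place of reads, and leaving out each library. Promoter sequences are RefSeq GRCm38.p6 and were matched by symbol for 5081 of the 6317 tested genes.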

Additional observations from a re-analysis of the deposited data

Results flagged for a closer look

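The change at 8 h differed between DPY30–mAID and RBBP5–FKBP cells for 7 genes by the interaction test of edgeR (adjusted p below 0.05), each value being the relative log2 change after DPY30 loss minus that after RBBP5 loss. Atxn7l3b differed by −2.49 (adjusted p = 0.00241). Its T>C reads were 132, 191 and 172 at 0 h and 31, 26 and 9 at 8 h in DPY30–mAID cells, and 47, 60 and 88 against 43, 37 and 69 in RBBP5–FKBP cells. Hspa5 differed by 1.39 (adjusted p = 0.00374). It had 285, 394 and 383 against 428, 324 and 127 T>C reads in DPY30–mAID cells, a higher share of a smaller pool, and 400, 389 and 286 against 98, 113 and 125 in RBBP5–FKBP cells. Pclaf, a PCNA-binding factor, differed by 3.51 (adjusted p = 0.0211), with 53, 112 and 69 against 6, 5 and 5 T>C reads in RBBP5–FKBP cells.

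The other 4 genes had 1 read or fewer in all libraries of one group of RBBP5–FKBP cells, so that the fitted value depends on the fit's treatment of 0 and is no bound. Arrdc4 differed by −5.34, Pfdn6 by −8.43, Dzip3 by −8.44 and Hacd2 by 5.18. Without 8 h replicate 2 of DPY30–mAID cells 1 gene was lower and 0 were higher (edgeR, adjusted p below 0.05).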

How the results depend on the processing

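On the scale of all reads (915 lower, 10 higher) 609 genes were lower without TMM factors, 253 lower and 1 higher with only 0 h and 8 h libraries in the fit, 1452 and 46 at an unadjusted p, 2 higher with a minimum mean of 50 T>C reads, and 6 higher among genes with under 20% multimapped reads. Leaving out 1 library gave 472 (without 8 h replicate 3) to 1882 lower (without 8 h replicate 1) and 3 to 27 higher (without 8 h replicate 3). On the relative scale (213 lower, 71 higher) the counts were 121 and 131 without TMM factors, 118 lower with the minimum of 50, 130 lower with only 0 h and 8 h libraries, 132 higher with DESeq2, and 626 and 470 at an unadjusted p. Leaving out 1 library gave 125 (without 0 h replicate 2) to 189 lower and 35 (without 0 h replicate 1) to 69 higher. For the difference between lines, leaving out each 8 h DPY30–mAID library gave 1 to 3 lower and 0 to 3 higher, and no 0 h library was left out.

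Same-numbered 0 h and 8 h libraries did not deviate together (r = −0.0062, 0.0133 and −0.0154 across genes), so the numbers were not taken as pairs. With the replicate block 5 genes were higher on the scale of all reads, and 2 were lower in the difference between lines.

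List medians, given minus that of all genes, were as follows. Conversions per covered T were compared with the mean of the 8 h libraries, whose value is given beside them. Chaperones (−0.62) had −0.38 with the minimum of 50, −0.33 with under 20% multimapped reads, −0.34 with conversions (from −0.58), and −0.65 to −0.49 leaving out 1 library. Splicing genes (−0.48) had −0.56 without a filter, −0.36 with the minimum of 50 and −0.33 with conversions (from −0.51). Initiation factors (−0.34) had −0.12 with conversions (from −0.33) and −0.40 to −0.22 leaving out 1 library. Ribosome biogenesis factors (−0.27) had −0.35 without a filter, −0.19 with conversions (from −0.33) and −0.40 to −0.31 leaving out 1 library. Polycomb genes (−0.24) had −0.31 without a filter, −0.16 with only 0 h and 8 h libraries and −0.11 with under 20% multimapped reads. Naive genes (−0.32) had −0.15 with the minimum of 50 and −0.0784 with conversions (from −0.27). FGF feedback genes (−0.27) had −0.11 with the minimum of 50 and 0.12 with conversions (from −0.20), a change of sign. Cytosolic ribosomal proteins (−0.15) changed sign to 0.0124 with the minimum of 50, 0.0142 with under 20% multimapped reads and 0.0271 with conversions (from −0.11). The cause was not tested. Of 112 called genes named, 51 kept the call under every alternative and none changed direction. The T>C share of the 8 h libraries ran from 5.51% to 13.0%, which limits the size of the common shift.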

Other observations

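Some genes of protein folding in the endoplasmic reticulum rose. Of 19 such genes, listed after values were seen, 17 were tested, 4 rose, 0 fell, 14 were above 0 and the median relative log2 change was 0.61, beside 1.12% of all tested genes that rose and a median of −0.02. Because the list was made after values were seen, its direction is no independent evidence, and 13 members did not pass the test. Among these Canx, a lectin chaperone, had 425, 302 and 337 T>C CPM at 0 h and 296, 248 and 187 at 8 h (−0.50 ± 0.25, adjusted p = 0.278) and was lower on the scale of all reads (−1.16, adjusted p = 0.02). Hspa5 (chr2:34771970-34777547), which encodes the HSP70 of that compartment, had 871, 952 and 866 T>C CPM at 0 h and 1293, 1463 and 988 at 8 h (0.49 ± 0.15, adjusted p = 0.0412), without overlap, but lost the call in 9 of 13 alternatives (adjusted p up to 0.246). Manf, a secreted stress response factor, had 82.5, 152 and 79.1 T>C CPM at 0 h and 353, 280.0 and 334 at 8 h (1.62 ± 0.31, adjusted p = 0.000187) and kept the call in all 13 alternatives. Calr, a calcium-binding lectin chaperone, had 287, 353 and 323 T>C CPM at 0 h and 592, 650.3 and 467 at 8 h (0.84 ± 0.21, adjusted p = 0.00669), and Pdia6, a disulfide isomerase, had 235, 234 and 145 T>C CPM at 0 h and 435, 424 and 404 at 8 h (1.05 ± 0.25, adjusted p = 0.0044). On the scale of all reads the log2 changes of the 4 genes that rose were −0.18, 0.93, 0.17 and 0.35, none past the test there.

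The ER stress response element, through which ATF6 is known to act on such genes, was searched as CCAAT and CCACG with 9 bases between them on both strands of the RefSeq promoters (GRCm38.p6). It was in 37 of 32851 promoters (0.113%), 10 of 5081 tested genes (0.197%), 8 of 15 listed genes, 3 of 61 genes that rose and 0 of 169 that fell. The other 5 listed genes with the element were not called: Canx, which was lower on the scale of all reads, Creld2 (0.84), Dnajc3 (0.89), Hsp90b1 (0.61, with 2 matches) and Syvn1 (0.44). The RefSeq start of Hspa5 is 120 bases from its GENCODE start, so that its window lies inside the gene coordinates given above. Windows are shown for the 3 genes that rose with the match in capitals: Hspa5 at chr2:34772020-34772049 (plus strand), Pdia6 at chr12:17266486-17266515 (plus strand) and Calr at chr8:84847069-84847098 (minus strand, the element in reverse).
Hspa5: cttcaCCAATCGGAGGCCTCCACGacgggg
Pdia6: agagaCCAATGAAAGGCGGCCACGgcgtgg
Calr: caacgCGTGGTCGACCCTCATTGGcccata
A match is a description of letters, and whether a factor acts there was not tested.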
